A study of Mus musculus with 2 samples.

Results

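The genes described here encode the complement system, the cascade of blood proteins that marks and lyses targets and recruits leukocytes, with its receptors and its regulators. They were taken as 31 listed mouse gene symbols, and every probe set whose platform annotation gave 1 of these symbols and no other was kept. This gave 51 probe sets for 27 genes, out of 34945 probe sets for 18193 genes on the array. The genes fell into 3 groups, namely C1q (3 genes), other components (12 genes with a probe set of 16 listed) and receptors and regulators (12 genes). The remaining 4 listed genes, C3, C4b, C7 and Cfd, had no probe set under their own symbol alone and are not analysed here.

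Complement can be started in the classical pathway by C1q bound to antibody or to damaged surfaces, in the lectin pathway by mannose-binding lectins and ficolins, and in the alternative pathway by slow spontaneous activation that factor B amplifies and properdin stabilises. All routes converge on cleavage of C3 and C5 and on the membrane attack complex, and host cells are guarded by membrane and plasma regulators. Most soluble components come from the liver, C1q comes largely from macrophages and dendritic cells, and the kidney makes several components itself. The glomerular capillary is a known site of complement deposition in disease.

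Glomeruli were isolated by sieving from kidneys of male C57BL/6J mice, and 1 array was made per genotype. Both genotypes were GC-A fl/fl p38 fl/fl, so both carried floxed alleles of GC-A, the natriuretic peptide receptor, and of the stress kinase p38. One carried Nephrin-Cre (Cre/+), with Cre driven by the nephrin promoter in podocytes, and is called the double knockout, and the other was Nephrin-Cre (+/+), read as without Cre, and is called the floxed control. All mice were 2 months old and had received a 6% NaCl diet and aldosterone at 0.2 µg per kg per minute by minipump for 3 weeks, so there is no unloaded group. The number of mice behind each array is not stated in the labels. The comparison asks how glomerular transcripts differ between the genotypes under this load.

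With 1 array per genotype there is no replicate, no test and no p-value, and higher or lower below means the double knockout array against the floxed control array. Signals were MAS5 intensities, and a signal under a floor of 52.7 (the 40th percentile of each array, averaged) was taken as not measured. A gene was measured if at least 1 of its signals was at or above that floor, and a fold against a signal under the floor was computed against the floor and is a lower bound. Npr1, which encodes GC-A, read 102 in double-knockout glomeruli and 167 in control glomeruli, and the brightest probe set of Mapk14, taken as the p38 gene, read 2607 and 2628. These whole-glomerulus signals hold all cell types, and where the probe sets lie relative to the floxed exons was not examined, so they are no check of the deletion. The podocyte markers Podxl, Synpo, Cdkn1c and Ptpro read 19692, 12192, 10998 and 9638 in double-knockout glomeruli and 18340, 8781, 8224 and 4903 in control glomeruli. Tubule RNA was present in both preparations too, with the proximal tubule gene Kap at 28247 and 34191.

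Of the 27 complement genes, 22 were measured, 19 of them with both signals at or above the floor and 3 through 1 array only. Of the 22, C1qc, Masp1 and C1qa were higher by 2-fold or more (3 genes), where 3.53% of all 13290 measured genes were that much higher. C8g and Mbl1 were lower by 2-fold or more (2 genes), where 2.87% of all measured genes were that much lower. The other 17 lay within 2-fold, and with so few genes these shares describe these arrays only. The median log2 difference was 0.29 over the 22 members and 0.07 over all measured genes. Of the members 15 were above 0 and 7 below, and 56.1% of all genes were above 0. These counts include the 3 genes measured through 1 array only, which fixed their sign: C6 through the double knockout, and Mbl2 and Cd46 through the control. With the measured genes split by signal into 3 equal parts, all 5 genes past 2-fold lay in the dimmest and middle parts, which held 8 and 6 members. None of the 8 members in the brightest part was past 2-fold, and there 1.90% of all genes were 2-fold higher and 4.13% lower.

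**Figure D1:**
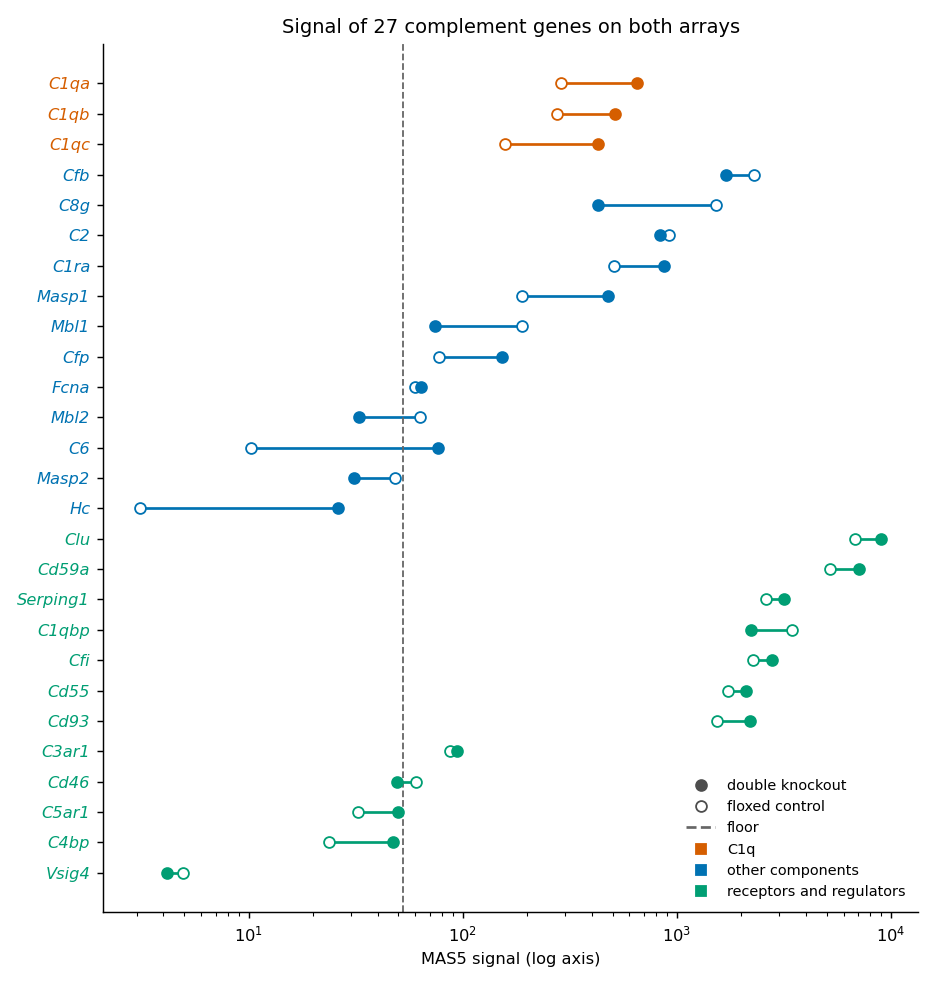
MAS5 signal on a log axis of the probe set that represents each of 27 complement genes, with filled points for the double knockout, open points for the floxed control and a dashed line at the floor of 52.7. The 3 C1q genes and Masp1 have the filled point well to the right, C8g and Mbl1 well to the left, and the bright regulators such as Clu and Cd59a have points close together.

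The C1q genes encode the 3 chains, A, B and C, of the molecule that recognises antibody and opens the classical pathway, and each was higher in the double knockout. C1qa read 651 in double-knockout glomeruli and 289 in control glomeruli, a 2.26-fold difference (log2 difference 1.17). C1qc read 429 and 158, a 2.72-fold difference (1.44), the largest upward difference among the probe sets that represent the 22 genes at this floor. C1qb read 512 and 275, 1.86-fold (0.90), just short of 2-fold. Its other 2 probe sets, both marked as cross-hybridising, read 372 against 202 (1.84-fold) and 327 against 110 (2.99-fold). The mean over all C1qb probe sets was 1.12 on the log2 scale and so past 2-fold. All 5 C1q probe sets were therefore higher in the double knockout, by 1.84-fold to 2.99-fold, and no C1q signal of the floxed control reached that of its own probe set in the double knockout. Among the 500 genes nearest in mean signal, C1qa, C1qb and C1qc stood at percentiles 98.4, 96.2 and 99.4 of the log2 difference, against a robust SD of those genes of 0.41, 0.39 and 0.46.

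C1qb, C1qc and C1qa lie next to each other in that order on chromosome 4 in the RefSeq gene table (GRCm38.p6), with no other protein-coding gene between them. The gene after C1qa, Epha8, was below the floor on both arrays. Windows at the starts of C1qb and C1qc are shown because these neighbours differed together; each runs from 250 bases before to 50 after the RefSeq start (GRCm38.p6), in the direction of the gene. The capitals mark GAGGAA on either strand, a core of the sites that PU.1, a transcription factor of macrophages, is known to bind.
C1qb, chr4:136886151-136886450, minus strand: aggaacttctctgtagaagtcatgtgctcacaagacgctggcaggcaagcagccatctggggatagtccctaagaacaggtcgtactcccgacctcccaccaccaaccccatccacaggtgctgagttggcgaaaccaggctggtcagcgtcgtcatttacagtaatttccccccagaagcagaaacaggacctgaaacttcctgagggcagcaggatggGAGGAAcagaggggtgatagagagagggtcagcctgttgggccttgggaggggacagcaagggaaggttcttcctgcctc
C1qc, chr4:136892865-136893164, minus strand: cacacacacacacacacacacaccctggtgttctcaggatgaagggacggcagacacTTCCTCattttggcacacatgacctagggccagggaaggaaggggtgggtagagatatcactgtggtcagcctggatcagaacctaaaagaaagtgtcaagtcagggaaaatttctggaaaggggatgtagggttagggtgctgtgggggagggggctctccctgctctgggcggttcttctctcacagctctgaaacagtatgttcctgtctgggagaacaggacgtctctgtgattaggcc
The C1qb window holds the letters once, 30 to 25 bases before the start, and the C1qc window once on the other strand, 193 to 188 bases before it. They occur in 28.3% of 27025 such windows of the RefSeq table and in 7 of 22 complement windows (31.8%), so the matches are only a description.

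C1q is known as a macrophage product, and macrophage markers were higher too, as were most markers of glomerular cells. Of 22 macrophage and monocyte markers, none of them a complement gene on the list, 21 were measured and all 21 were above 0, with a median log2 difference of 0.85 and a range of 0.09 to 1.39. Of the 21, 2 (Aif1 and Msr1) reached the floor on the double-knockout array only, which fixed their sign. The summed signal of the marker list was 18894 in double-knockout glomeruli and 10648 in control glomeruli, a ratio of 1.77, where the ratio for the 3 C1q genes was 2.21. Lyz2 (lysozyme) read 5456 and 2868, Csf1r (the receptor of the macrophage growth factor) 3025 and 2010, Ctss (cathepsin S) 2274 and 1142, and Ptprc (CD45) 1022 and 603. The log2 difference of C1qc exceeded that of all 21 measured markers, that of C1qa 19 of them and that of C1qb 13. The marker Cd163 was below the floor on both arrays. The podocyte, glomerular endothelial, mesangial and mural, and parietal epithelial lists had medians of 0.61, 0.72, 0.72 and 0.93. Of the 46 measured markers on these 4 lists, 42 were above 0 and 4 below. In whole glomeruli more cells of a type and more RNA per cell cannot be told apart, and the part of macrophage number in the C1q difference was not tested. All differences were also recentred on 46 markers of podocytes, endothelium, mesangium and capsule, whose own median was 0.65. After this recentring C1qa read 0.52, C1qb 0.24 and C1qc 0.79. No complement gene was then 2-fold higher, where 0.489% of all measured genes were.

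**Figure D2:**
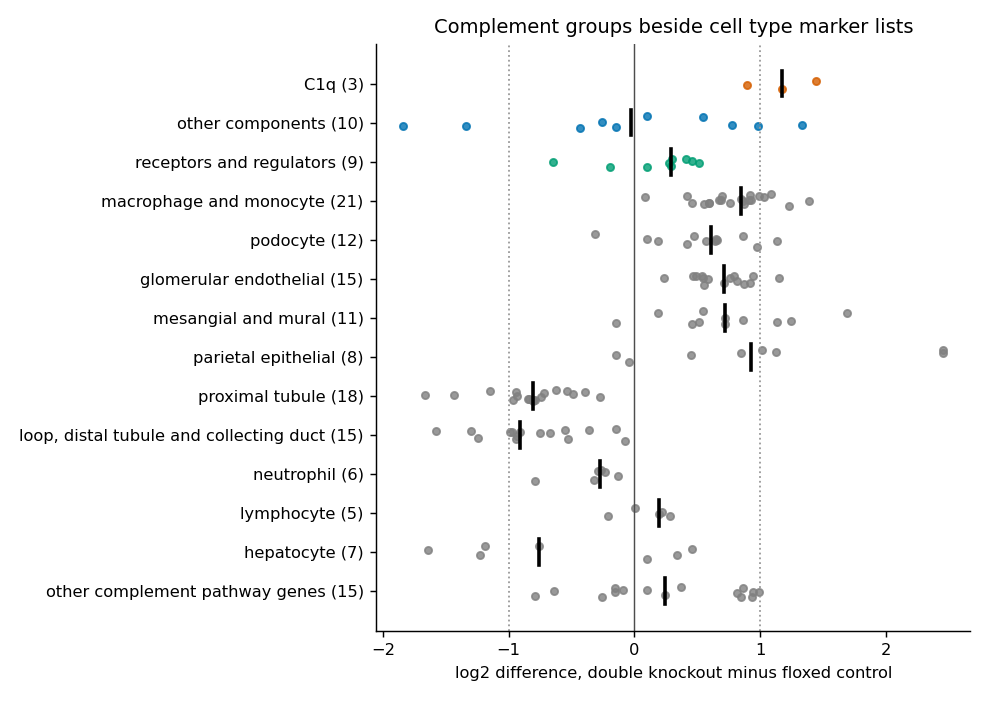
Log2 difference, double knockout minus floxed control, of every measured gene of the 3 complement groups and of the marker lists, with the number of genes in brackets, the median as a black bar and dotted lines at 2-fold. The C1q genes lie from 0.90 to 1.44, inside and just above the macrophage markers, and the other components spread from -1.84 to 1.33.

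Of the enzymes that follow C1q, C1ra was higher and C2 nearly level. C1ra, the protease that C1q activates, read 874 in double-knockout glomeruli and 511 in control glomeruli, 1.71-fold (0.77). C1s1, its partner protease and no listed member, read 1860 and 975, 1.91-fold (0.93). C2, the protease part of the classical convertase, read 831 and 918, a log2 difference of -0.14, and its other 2 probe sets read -0.16 and -0.39. C2 and Cfb are neighbours on chromosome 17, and Cfb, the matching protease of the alternative pathway, read 1696 and 2296, 1.35-fold lower (-0.44). All 4 probe sets of this gene pair were thus lower in the double knockout, and none by 2-fold.

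The lectin pathway had genes on both sides. Masp1, which encodes a protease that mannose-binding lectins carry, read 474 in double-knockout glomeruli and 188 in control glomeruli, 2.52-fold (1.33). Of its 4 other probe sets, 3 were measured and all were higher, at 282 against 106 (2.67-fold), 105 against 56.7 (1.85-fold) and 102 against 45.3 (at least 1.93-fold). The mean over all 5 Masp1 probe sets, one of them below the floor on both arrays, was 0.92 on the log2 scale and so short of 2-fold. The log2 difference of Masp1 exceeded that of all 15 glomerular endothelial markers and all 12 podocyte markers measured, and 10 of 11 mesangial and mural markers, the exception being Tagln (1.69). Of the 8 parietal epithelial markers measured, whose median was 0.93, it exceeded 6, and Cd44 (2.46) and Cdh6 (2.45) lay above it. The Masp1 gene overlaps Rtp4 in the RefSeq table, and Rtp4 read 1258 and 697 (0.85); which of their transcripts the probes read was not tested.

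Mbl1, a mannose-binding lectin, went the other way, at 74.5 in double-knockout glomeruli and 188 in control glomeruli, 2.53-fold lower (-1.34). The Mbl1 signals were low, and with the floor raised to the 60th percentile (181) the difference became -0.06, since the double-knockout signal was then raised to 181. Mbl2, the second such lectin, read 32.7 and 62.9, lower by at least 1.20-fold. Mbl2 reached the floor on the control array only, which fixed its sign. Fcna (ficolin A) read 63.6 and 59.5, barely above the floor on both arrays, and Masp2, the protease that cleaves C4 and C2, was below the floor in both of its probe sets on both arrays. Masp1 and Mbl1 thus stood on opposite sides of 0.

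In the alternative pathway, Cfp was higher while Cfb was lower as given above. Cfp encodes properdin, which stabilises the alternative convertase and is made by leukocytes. One Cfp probe set read 152 in double-knockout glomeruli and 77.2 in control glomeruli (1.97-fold, 0.98), just short of 2-fold. The other read 147 and 35.0, at least 2.78-fold higher, and the mean of both was 1.23 on the log2 scale. Each Cfp probe set was thus higher in the double knockout. The Cfp window is shown beside those of Mbl1 and C8g, the 2 genes lower by 2-fold or more. These windows are drawn from the same table and marked in the same way. C8g has 2 starts in it, and the window of 1 is shown.
Cfp, chrX:20931506-20931805, minus strand: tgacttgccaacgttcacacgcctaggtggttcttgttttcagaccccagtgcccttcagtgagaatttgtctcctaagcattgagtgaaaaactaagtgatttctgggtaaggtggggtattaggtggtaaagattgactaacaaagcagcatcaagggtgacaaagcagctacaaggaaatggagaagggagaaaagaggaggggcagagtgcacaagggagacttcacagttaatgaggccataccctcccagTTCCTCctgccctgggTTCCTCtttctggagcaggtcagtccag
Mbl1, chr14:41151206-41151505, plus strand: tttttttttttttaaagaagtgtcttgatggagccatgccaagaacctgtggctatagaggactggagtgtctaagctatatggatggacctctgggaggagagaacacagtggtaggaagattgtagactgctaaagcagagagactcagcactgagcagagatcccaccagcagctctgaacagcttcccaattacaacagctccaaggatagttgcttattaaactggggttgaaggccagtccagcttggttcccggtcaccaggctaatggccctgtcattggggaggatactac
C8g, chr2:25501670-25501969, minus strand: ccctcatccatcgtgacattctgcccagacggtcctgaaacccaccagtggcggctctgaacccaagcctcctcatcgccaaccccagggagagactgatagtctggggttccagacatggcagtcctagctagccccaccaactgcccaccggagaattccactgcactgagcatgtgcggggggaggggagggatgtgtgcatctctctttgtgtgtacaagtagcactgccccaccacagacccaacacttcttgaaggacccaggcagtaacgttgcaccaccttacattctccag
The Cfp window holds GAGGAA on the other strand 2 times, 7 to 12 and 23 to 28 bases after the start, and the Mbl1 and C8g windows hold none. The letters GTTAAT, a core of the sites bound by HNF1, a transcription factor of liver and kidney epithelium, occur on either strand in 7.2% of all windows. They occur in 6 of 22 complement windows (27.3%), those of Cd55, C4bp, Hc, C1ra, C7 and Cfp, and not in those of Mbl1 and C8g.

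Among the components of the membrane attack complex, C8g gave the largest difference of the 22 genes at this floor. C8g encodes the gamma chain of C8, a lipocalin, and its 1 probe set read 427 in double-knockout glomeruli and 1528 in control glomeruli, 3.58-fold lower (-1.84). It stood at percentile 0.20 of the 500 genes of like signal, whose robust SD was 0.42. Its 1 probe set lay above every floor tried, so other floors and probe set choices could not change its value. Under the other scalings, the recentring and a pseudocount in place of the floor it ranged from -2.49 to -1.76. C6, which joins the complex early, read 76.7 and 10.3, at least 1.46-fold higher against the floor. Hc, the mouse gene of C5, read 26.2 and 3.10, below the floor on both arrays. Of the components that are no listed members, C8a, another chain of C8, read 75.7 and 63.8 (0.25), near the floor. C8b and C9 were below the floor on both arrays.

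Tubule markers and some liver-type genes were lower in the double knockout as well. All 18 measured proximal tubule markers and all 15 markers of the loop, distal tubule and collecting duct were below 0, with medians of -0.81 and -0.91 and ranges of -1.66 to -0.28 and -1.58 to -0.08. Their summed signals were 157163 in the double knockout against 245924, and 43874 against 62750. The log2 difference of C8g lay below that of all 18 and all 15 markers, and that of Mbl1 below 16 of 18 and 14 of 15. Of 10 listed hepatocyte genes 7 were measured, 4 of them below 0, with Apoa2 at 64.0 and 199, Ttr at 8337 and 19585 and Alb at 182 and 417, while the fibrinogen genes Fga, Fgb and Fgg read 0.34, 0.46 and 0.10 on the log2 scale. The summed hepatocyte-list signal was 19846 and 30193, and Apoa1 was below the floor on both arrays. The part of tubule or other RNA in the C8g and Mbl1 differences was not tested. C8g overlaps Fbxw5 in the RefSeq table, and Fbxw5 read 441 and 565 (-0.36); which transcripts the C8g probes read was not tested either.

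**Figure D3:**
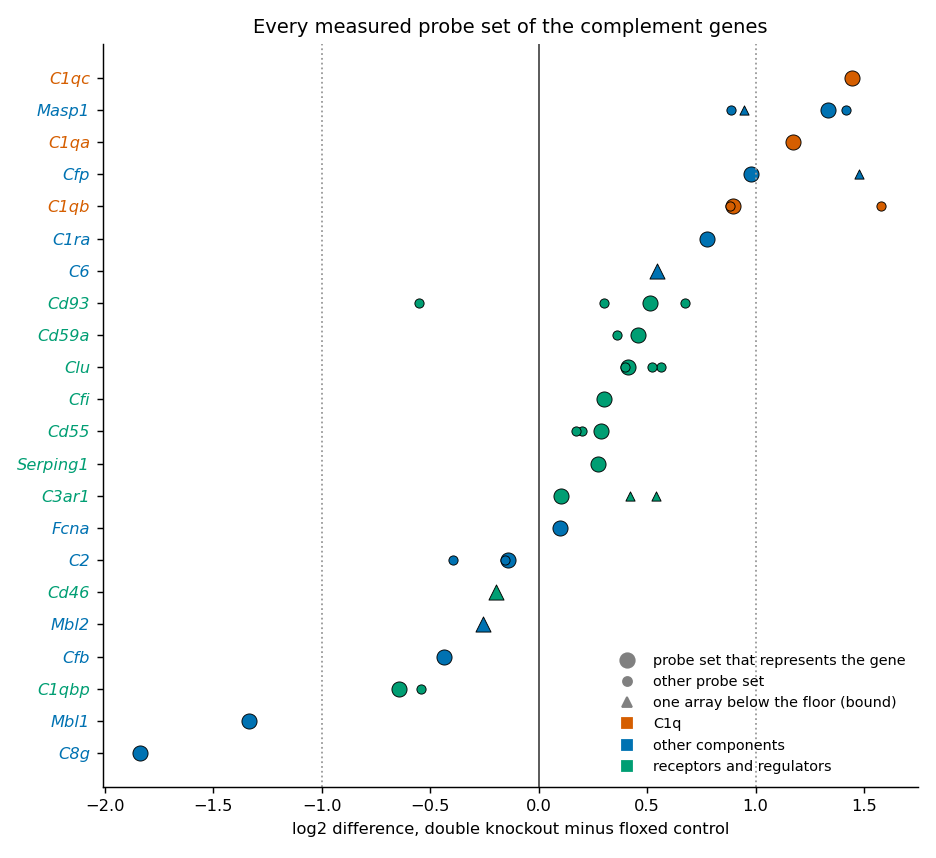
Log2 difference, double knockout minus floxed control, of every measured probe set of the 22 measured complement genes, with large symbols for the probe set that represents a gene, triangles where 1 array was below the floor, and dotted lines at 2-fold. Where a gene has several measured probe sets, they lie on the same side of 0, except that Cd93 has a single dim probe set on the other side. Their spread is wide for some genes, such as C1qb from 0.88 to 1.58.

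The receptors were mostly near or below the floor. C3ar1, the receptor of the anaphylatoxin C3a, read 93.7 in double-knockout glomeruli and 87.4 in control glomeruli in its brightest probe set (0.10), and its other probe sets read 76.5 against 34.0 and 70.5 against 43.3, at least 1.45-fold and 1.34-fold higher. C5ar1, the C5a receptor, read 49.7 and 32.4 in its brighter probe set, and Vsig4, a C3b receptor of resident macrophages, read 4.17 and 4.94. Both genes were below the floor on both arrays, so these signals do not show whether they differed.

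Cd93 and C1qbp, the latter named for binding C1q, were bright and went opposite ways. Cd93, an endothelial and myeloid surface protein once taken for a C1q receptor, read 2183 and 1530 (1.43-fold, 0.51), and its second bright probe set read 1427 and 894 (1.60-fold, 0.67). A dim Cd93 probe set read 57.7 and 84.6 (-0.55), and another 84.3 and 68.5 (0.30). The 15 glomerular endothelial markers were all above 0, with a median of 0.72, and their part in the Cd93 difference was not tested. C1qbp, a protein found mainly in mitochondria, read 2205 in double-knockout glomeruli and 3448 in control glomeruli (1.56-fold lower, -0.65), with a second probe set at 5389 and 7862 (-0.54).

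Of the regulators that protect host cells, 5 were well above the floor on both arrays and differed by less than 1.5-fold, and Cd46 and C4bp were dim. Cd59a, which blocks the membrane attack complex, read 7117 in double-knockout glomeruli and 5178 in control glomeruli (1.37-fold), and its second probe set 5270 and 4110 (1.28-fold). Clu, the secreted chaperone clusterin that also binds that complex, read 9005 and 6761 (1.33-fold), and its other 3 probe sets ranged from 1.32-fold to 1.48-fold higher. Cd55, which speeds the decay of C3 convertases, read 2108 and 1727 (1.22-fold), with 1.15-fold and 1.13-fold in its other probe sets. Serping1, the C1 inhibitor, read 3153 and 2611 (1.21-fold), and Cfi, the protease factor I, 2785 and 2264 (1.23-fold). These 5 genes lay between 0.27 and 0.46 on the log2 scale, above the median of all genes (0.07) and below that of the glomerular cell markers (0.65). Cd46, a cofactor of factor I with little expression outside the testis in mice, read 49.2 and 60.3, and C4bp, a plasma regulator made in liver, read 47.1 and 23.7 and was not measured. After recentring on the glomerular cell markers all 5 were negative, from -0.38 for Serping1 to -0.19 for Cd59a, so their direction depends on the reference chosen.

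By group, the median log2 difference was 1.17 for C1q (3 genes), -0.02 for the other components and 0.29 for receptors and regulators. Of the 10 other components measured, 5 were above 0 and 5 below. Of the 9 receptors and regulators measured, 7 were above 0, where 56.1% of all measured genes were. These counts include C6, Mbl2 and Cd46, whose sign was fixed because they reached the floor on 1 array only. The other components held 3 of the 5 genes past 2-fold, 1 of them higher and 2 lower, and the receptors and regulators held none. Over the 8 members with more than 1 probe set at or above the floor on both arrays, all probe sets shared a direction in 7 (87.5%), the exception being Cd93. Over all genes with several such probe sets this share was 65.0% of 5864.

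**Figure D4:**
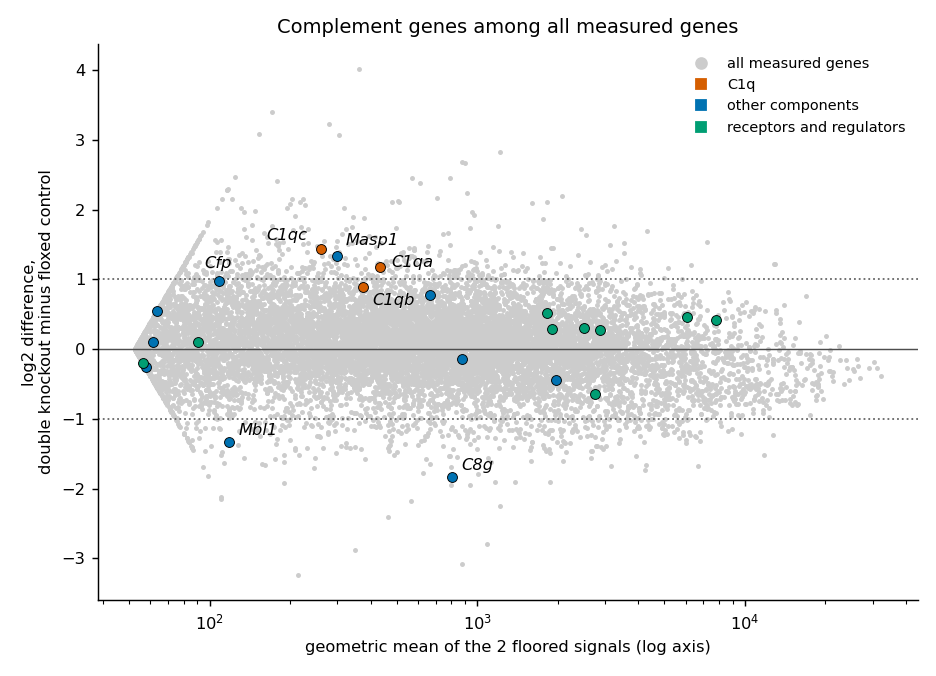
Log2 difference, double knockout minus floxed control, against the geometric mean of the 2 floored signals on a log axis, with all 13290 measured genes in grey, the 22 measured complement genes in colour and dotted lines at 2-fold. C1qc, Masp1 and C1qa lie above the upper dotted line, C8g and Mbl1 below the lower one, and the bright regulators between them. All measured genes together run from -3.24 to 4.01.

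A further 33 genes of the pathway that are not among the 31 were read from a separate list, of which 24 had a probe set and 15 were measured. None was past 2-fold in either direction, where 3.53% of all measured genes were 2-fold higher and 2.87% lower. Of the 15, 9 were above 0 and 6 below, and the median was 0.25. Of the 15, 4 reached the floor on 1 array only, which fixed their sign: Itgam through the double knockout, and Cr2, Fcnb and Colec11 through the control. Colec12, a scavenger collectin, read 598 in double-knockout glomeruli and 302 in control glomeruli (1.98-fold), and Thbd, thrombomodulin, which also restrains complement, read 2452 and 1272 (1.93-fold). The leukocyte integrin genes of complement receptors 3 and 4 were likewise higher, with Itgam at 96.0 and 36.7 (at least 1.82-fold) and Itgax at 155 and 86.1 (1.80-fold). Itgb2, which encodes the beta chain both receptors share, read 574 and 327 (1.76-fold). Of other leukocyte lists, the 6 measured neutrophil markers were all below 0 (median -0.28, S100a9 at -0.79). Of these 6, 3 (Mpo, Elane and Csf3r) reached the floor on the control array only, which fixed their sign. The 5 measured lymphocyte markers had a median of 0.19, with Cd8a measured through the control array only. The part of leukocyte number in the integrin and Cfp values was not tested. On the lower side, Cpn1, a peptidase that inactivates anaphylatoxins, read 2491 and 4301 (1.73-fold lower). Cr1l, the main membrane regulator of C3 in rodents, read 2675 and 2074 (1.29-fold), close to Cd55 and Cd59a in size.

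**Figure D5:**
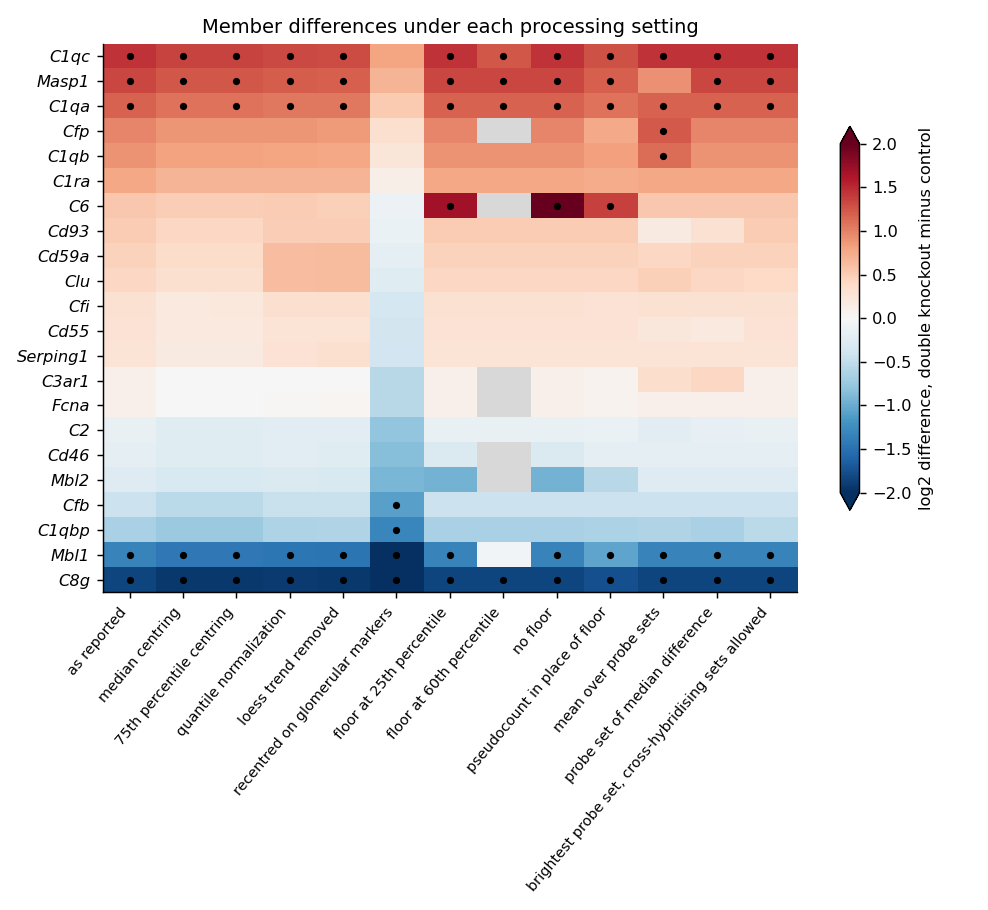
Log2 difference, double knockout minus floxed control, of the 22 measured complement genes as reported and under 12 other settings, in colour from blue (lower) to red (higher), with a dot where the difference is at least 2-fold and grey where the gene was not measured. C8g carries a dot in every column, and the column recentred on glomerular markers has no dot on the higher side.

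Which members passed 2-fold depended on the reference, on the choice of probe set where a gene had several and, for dim genes, on the floor. With the mean over probe sets, C1qb (1.12) and Cfp (1.23) passed 2-fold and Masp1 (0.92) did not. That gave 4 members higher, where 2.26% of all measured genes were. C1qa and C1qc were past 2-fold under 11 of 12 other settings, the exception being the recentring on glomerular markers. Masp1 was past 2-fold under 10, and Mbl1 under 11. Not all of these settings could change the result. C1qa, C1qc and Mbl1 have 1 probe set each, so the choice of probe set could not act on them. A lower floor or none could not change any of these genes, whose signals lay above the floor on both arrays. C6 was past it under 3 settings with a lower floor, none or a pseudocount, at 1.36 to 2.90, since its control signal lay below the floor. After recentring, 0 members were 2-fold higher and 4 lower, with Cfb at -1.09 and C1qbp at -1.30 joining C8g and Mbl1, where 0.489% of all genes were that much higher and 19.2% lower. Of 258 values of the 22 members under these settings, 247 kept the direction given here, and 13 members kept it in every setting in which they were measured. Many of these agreements were fixed in advance. For a given probe set no floor or pseudocount can reverse a sign, and the choice of probe set cannot act on a gene that has 1. The counts are therefore no measure of stability.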

How the data were processed

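Glomerular RNA was labelled by a 3′ in vitro transcription kit and hybridised to 1-colour arrays, per the labels. The deposited values were 1 linear intensity per probe set and array, and the submitters' processing notes name MAS5 (no version given in the sources used here). The mean without the lowest and highest 2% of 45101 probe sets was 500 on both arrays, so a difference is relative to the rest of each sample. Values were used as deposited. Gene symbols came from the platform annotation held by GEO, and all 27 gene identifiers matched RefSeq (GRCm38.p6). A gene was represented by its brightest probe set, without cross-hybridising sets (_x_at) where another existed. Signals were raised to the floor (40th percentile, control probe sets left out) before log2. Of the members 27 were found and 22 measured. All members were named, other pathway genes by size of difference, and markers by brightness. Cpn1, Cr1l, C8a, C8b, C9, Cd163, Cdh6, Alb, Apoa1, Apoa2 and the neighbouring or overlapping genes were named after their values were seen. The members, lists and settings were chosen with earlier results of these data known. The alternatives were other scalings, floors, probe set choices and fold rules. Scripts used Python 3.11.15 with pandas 2.3.3, numpy 2.4.6 and statsmodels 0.14.6, and were tested on simulated data. The number of arrays limits the precision.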

Additional observations from a re-analysis of the deposited data

Results flagged for a closer look

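The annotation gives 3 probe sets to a member and a second gene together, which were left out of the comparisons, and a pair of them read above the floxed control. The probe set shared by C4a and C4b, the near-identical genes of complement component C4, read 1157 in double-knockout glomeruli and 695 in control glomeruli, a log2 difference of 0.74 (1.67-fold). The probe set shared by C1rb and C1ra read 204 and 143, a log2 difference of 0.52 (1.43-fold), beside 0.77 for the probe set of C1ra alone. The one shared by Cd55b and Cd55 read 11.9 and 13.3, below the floor on both arrays. They cannot be assigned to a single gene, and there is 1 array per genotype.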

How the results depend on the processing

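No paired analysis was possible because each genotype had 1 array and no test was made. Recentring on glomerular markers, which put 0.489% of all genes 2-fold higher and 19.2% lower, took 0 members past 2-fold upward and 4 downward (3 and 2 as reported) and turned the median over the measured members to -0.36, that of receptors and regulators to -0.37 and that of the other pathway genes to -0.41. By it the C1q median became 0.52, the median of the other components -0.68 and the number of other pathway genes at least 2-fold lower 2, while the median of all genes moved from 0.07 to -0.59. Median centring, 75th percentile centring, quantile normalization and loess removal left 3 members higher and 2 lower, although the share of all genes past 2-fold that were higher fell from 55.1% to 38.6% under both centrings. A floor at the 60th percentile left 1 member lower and put the median of the other pathway genes at 0.81. With the floor at the 25th percentile or with none, 1 other pathway gene was higher and 1 lower, against 0 and 0. Of all genes, 4.33% and 4.89% were then 2-fold higher and 3.57% and 3.91% lower. The 1.5-fold rule, which 13.7% of all genes passed upward and 10.0% downward, gave 6 members higher, and 6 other pathway genes higher and 2 lower. The 3-fold rule, which 0.549% and 0.256% passed, gave 0 members higher and 1 lower. A change of median counted as a move from 0.25 on the log2 scale, as no replicate spread exists. Signals near the floor limit what can be said of the receptors, Mbl1, Mbl2, Fcna, C6 and Cd46.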
